A study of Mus musculus with 5 samples.

Results

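Prom1, Epcam, Cd44, Cd24a, Spp1, Tm4sf4, Anxa4 and Sox4 are 8 genes used to mark biliary epithelium and its progenitors. They were taken as a list of symbols and matched by symbol in both deposited tables, where all 8 were found once, among 52029 genes in all. All 8 passed the filter on low counts. The label under which they were listed speaks of surface and secreted markers, but Anxa4 encodes an intracellular membrane-binding protein and Sox4 a nuclear one. The study grew hepatobiliary organoids, self-renewing epithelial cultures, from primary liver stem/progenitor cells of wild-type mice, and sequenced their total RNA at day 10. Organoids alone were at passage 1 (2 libraries, M11 and M12), and organoids grown with liver endothelial cells (LiECs) were at passage 8 (3 libraries). Co-culture and passage therefore cannot be told apart, and every difference given here carries both. Every culture received the same medium with EGF, nicotinamide, heparin, an endothelial growth supplement (ECGS) and the kinase inhibitor Y-27632. The labels give no age of the mice, nor whether the libraries of a group stem from separate cultures. The p-values thus reflect only how far these libraries spread, which may be technical. Whether the RNA was taken from organoids after removal of the endothelial cells is not given in the sources used here.

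The co-culture libraries M9 and M10 share a table with M11 and M12, and only these 4 were tested together. The third co-culture library comes from a separate table built on another annotation, so its values carry no replicate and no test. Total counts ran from 26466739 to 35878241 in the 4 libraries and reached 58853737 in the third co-culture library. Mitochondrial coding genes took 2.06% to 2.58% of counts in the 4 libraries and 5.93% in the third co-culture library, which thus stands apart in both depth and mitochondrial share. The biliary markers Krt7, Krt19, Sox9, Cdh1 and Cldn7 were detected in every library. Of 13 endothelial markers, each of the 3 co-cultures had 5 without a count, not all of them the same genes, against 2 in M11 and 5 in M12. Their summed level was 11.04, 10.6 and 7.58 CPM (counts scaled to the library's total) in these co-cultures and 9.33 and 8.94 CPM alone. Pecam1, which defines endothelium, had 2 counts in M9 and in M10 and, for the third co-culture library, 10, so this marker was at or near 0 in all 3. In such bulk RNA, fewer cells of a type and less RNA per cell cannot be told apart.

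Adult bile ducts are lined by cholangiocytes, and after injury ductular cells that carry progenitor markers can expand around the portal tract. Surface proteins such as prominin-1, EpCAM, CD44 and CD24 are commonly used to sort these cells, and osteopontin, encoded by Spp1, is secreted by cholangiocytes and is a ligand of CD44 and of integrins. SOX4 acts with SOX9 in the development of the bile ducts. Several of the markers are not exclusive to biliary cells, since Spp1 and Cd44 are also expressed by macrophages and by activated mesenchymal cells.

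Promoter sequence is shown for Spp1, Cd44 and Anxa4, because their levels in all 3 co-cultures lay on 1 side of both organoid-alone libraries. Spp1 and Cd44 lay below, and Anxa4 above. For Spp1 the third co-culture library was only just below M11 (2026 against 2065 CPM, scaled over the 5 libraries). A further ground is that the 250 bases before the start used here for each of these genes hold no annotated exon. Spp1 and Anxa4 each had another RefSeq start inside the gene, whose window is not shown. That other window overlapped an annotated exon for Spp1 but not for Anxa4. RefSeq promoters (GRCm38.p6) were at hand for 7 of the 8 genes. Those of Prom1, Sox4 and Tm4sf4 ran into annotated exons or began at an internal exon and are not shown. Each sequence reads 5′ to 3′ on the strand of the gene and ends at the base before its start. Capitals mark matches on either strand to any of 8 short motifs: hypoxia response element cores (ACGTG and GCGTG), AP-1 (TGANTCA), TEAD (GGAATG), RBPJ (TGGGAA), TCF/LEF (CTTTGA), SOX (ACAAT) and TATA box (TATAAA).
Spp1 (chr5:104434861-104435110, plus strand): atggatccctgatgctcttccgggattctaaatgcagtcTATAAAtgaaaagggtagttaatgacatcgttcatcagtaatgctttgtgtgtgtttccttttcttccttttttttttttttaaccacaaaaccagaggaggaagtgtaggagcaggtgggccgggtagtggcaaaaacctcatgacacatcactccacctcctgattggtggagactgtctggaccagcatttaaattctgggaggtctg
Cd44 (chr2:102901666-102901915, minus strand): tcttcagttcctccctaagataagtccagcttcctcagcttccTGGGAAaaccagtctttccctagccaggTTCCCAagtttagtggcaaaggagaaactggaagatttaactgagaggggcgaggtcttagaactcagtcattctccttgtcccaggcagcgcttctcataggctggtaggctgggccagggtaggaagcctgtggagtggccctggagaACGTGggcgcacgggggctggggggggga
Anxa4 (chr6:86793585-86793834, minus strand): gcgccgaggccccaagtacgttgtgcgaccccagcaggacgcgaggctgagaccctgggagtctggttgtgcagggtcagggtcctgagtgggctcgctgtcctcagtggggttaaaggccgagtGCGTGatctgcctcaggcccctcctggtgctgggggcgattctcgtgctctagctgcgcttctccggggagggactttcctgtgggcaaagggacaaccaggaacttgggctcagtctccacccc
The Spp1 window held a TATAAA, found in 12.3% of 32536 windows of that length. The Cd44 window held 2 TGGGAA (21.6% of windows have at least 1) and 1 ACGTG (16.7%), and the Anxa4 window 1 GCGTG (28.3%). None of these matches overlapped another. The Anxa4 window had 64.8% G and C and 13 CpG pairs, that of Cd44 56.4% and 5, and that of Spp1 43.6% and 3, against medians of 52.4% and 6 over all windows. A match is a description of letters only.

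Of the 8 markers, 1 rose in M9 and M10 and none fell by edgeR's quasi-likelihood test (Benjamini-Hochberg adjustment over all 15899 genes tested, threshold 0.05); over all genes 2.24% were called, 0.994% higher and 1.25% lower. The gene that rose was Prom1, by about 2.3-fold. At an unadjusted p under 0.05 there were 4 markers higher (Prom1, Cd24a, Anxa4, Sox4) and 1 lower (Spp1), where 17.5% of all genes passed in either direction. DESeq2 called 1 higher (Prom1) and 1 lower (Spp1), and limma-voom 1 higher and 0 lower. The share of all genes called was itself 8.26% with DESeq2, 15.7% without M9 and 6.68% without M10, against which the calls gained by single markers in those fits are to be read. The fold change was positive for 4 and negative for 4, and the median over the 8 was 0.12 on the log2 scale, against 0.00 over all genes tested. M9 and M10 both lay above both organoid-alone libraries for 4 markers (24.3% of all genes tested) and below them for 3 (25.1%). On simulated counts with 2 libraries per group the same fit recovered 8% of genes changed 2-fold and 86% of those changed 4-fold. The simulation gave every gene the same spread (common dispersion 0.0695), so these shares need not hold for the 8 markers. A marker that was not called may still have changed.

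**Figure D1:**
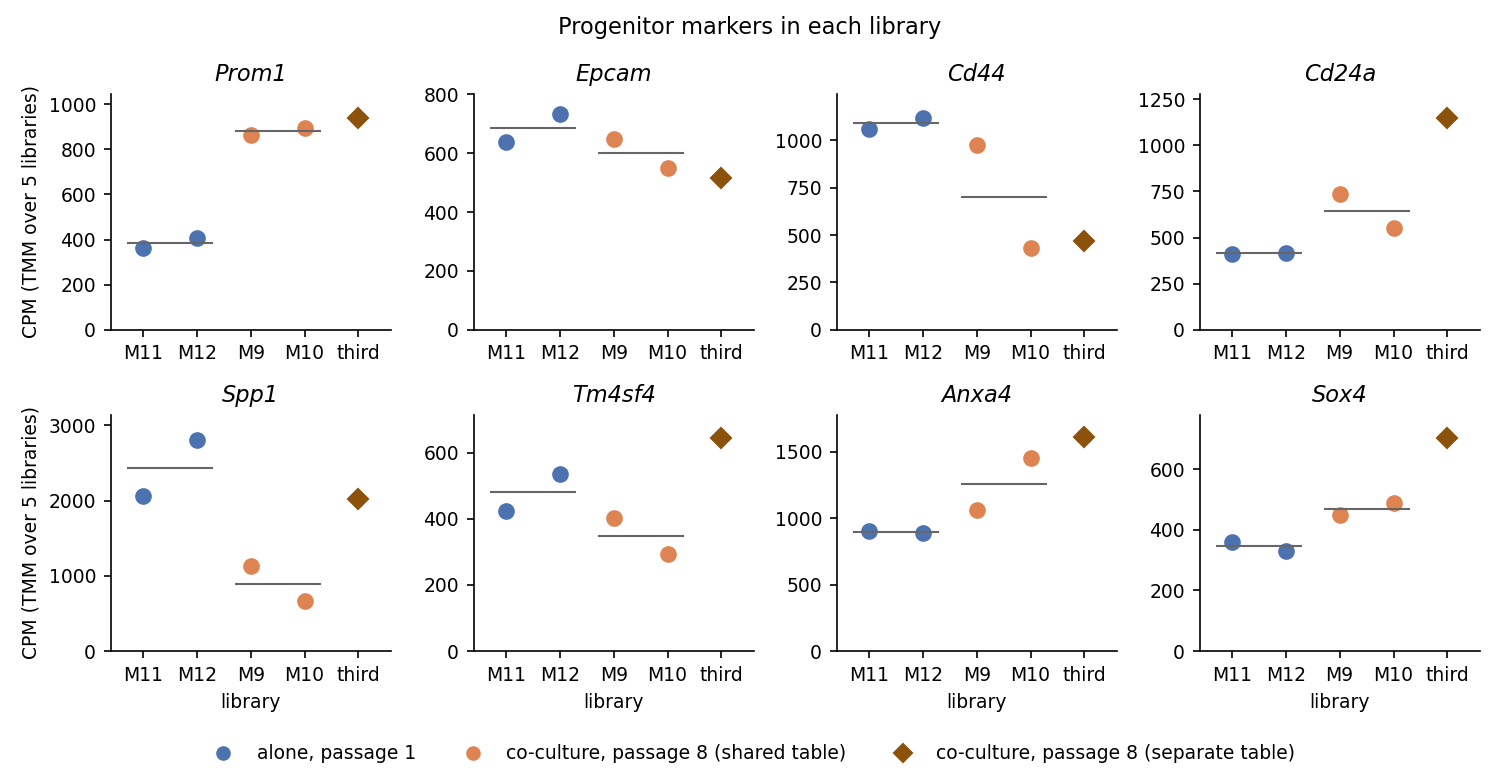
Level of each progenitor marker in each library, in CPM scaled by TMM over the 5 libraries (vertical axes start at 0); circles are the libraries of the shared table, diamonds the third co-culture library from its own table, and lines the mean of the 2 libraries of a group. Prom1, Cd24a, Anxa4 and Sox4 lie above both alone libraries in all 3 co-cultures, and Epcam and Tm4sf4 are mixed. Cd44 and Spp1 lie below both alone libraries in all 3, Spp1 in the third only just.

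Prom1 (ENSMUSG00000029086; chromosome 5, 43993620 to 44102032, minus strand, GRCm38) encodes prominin-1 or CD133, a membrane protein of apical protrusions that marks progenitors in several epithelia. It was at 351 CPM in M11 and 397 in M12, and at 845 in M9 and 860.0 in M10 (CPM here after TMM scaling of library sizes). The co-culture libraries were thus nearly equal and both more than double either library alone. Its mean went from 374 ± 32.9 CPM (SD, n = 2) up to 853 ± 10.4 CPM (SD, n = 2). This is a log2 fold change of 1.19 ± 0.15 (SE; 95% interval 0.82 to 1.56) with an adjusted p = 0.0264 by edgeR. Prom1 held 941 CPM in the third co-culture library, scaled over all 5 libraries, a scale on which the other 4 read 2.35% to 3.91% higher. It lay above the mean of the organoids alone there by 1.29 on the log2 scale. On that scale M9 lay 1.17 and M10 1.22 above the organoids alone, so the 3 co-cultures were close to each other. The call was lost without M11, without M12 and with all 5 libraries (adjusted p = 0.207, edgeR). Over all alternatives the log2 fold change stayed between 1.11 and 1.28.

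Cd24a (ENSMUSG00000047139; chromosome 10, 43578284 to 43584265, plus strand) encodes CD24, a small, heavily glycosylated protein anchored at the cell surface. The libraries alone agreed closely, at 398 and 406 CPM, while M9, with 717 CPM, and M10, with 529.8 CPM, were both above them. The log2 fold change was 0.63 ± 0.19 (SE; 95% interval 0.17 to 1.10) and did not pass the threshold (adjusted p = 0.172, edgeR). Cd24a reached 1148 CPM in the third co-culture library, 1.47 above the organoids alone on the log2 scale, the largest difference of the 8 markers in that library. It passed without M10 (0.84; adjusted p = 0.0113) and without a low-count filter (adjusted p = 0.0267), and was at 0.41 without M9. A pseudogene, Gm6212, shares 2.75% of the 50-base words of Cd24a transcripts, and it had at most 5.06 counts in a library.

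Epcam (ENSMUSG00000045394; chromosome 17, 87635979 to 87651129, plus strand) encodes an adhesion molecule of simple epithelia that is widely used to sort biliary cells. M11 held 618 CPM and M12 713 CPM, against 635 CPM in M9 and 529 CPM in M10, and the groups overlapped. The log2 fold change was -0.19 ± 0.17 (SE; 95% interval -0.61 to 0.22; adjusted p = 0.635, edgeR). This interval leaves room for a decrease to a value of -0.61 and for an increase to 0.22. In the third co-culture library Epcam was at 517 CPM, -0.40 from the organoids alone. Over the 5 libraries its highest value was 1.42 times its lowest, the narrowest range of the 8 markers.

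Cd44 (ENSMUSG00000005087; chromosome 2, 102811141 to 102901665, minus strand) encodes a receptor for the matrix polymer hyaluronan and for osteopontin. The libraries alone were at 1026 and 1089 CPM. M9, at 952 CPM, lay just below them, whereas M10 was at 415 CPM. M9 was thus 2.29 times M10, the widest gap between those co-cultures among the 8 markers. The log2 fold change was -0.63 ± 0.37 (SE; 95% interval -1.55 to 0.29; adjusted p = 0.471, edgeR). It was -1.34 without M9 (adjusted p = 0.000578) and -0.15 without M10 (adjusted p = 0.703). The third co-culture library, at 468 CPM and -1.22 from the organoids alone, was near M10.

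Tm4sf4 (ENSMUSG00000027801; chromosome 3, 57425314 to 57441677, plus strand) encodes a membrane protein with 4 transmembrane segments. M11 had 411 CPM, M12 523 CPM, M9 394 CPM and M10 282 CPM. M9 lay only slightly under M11, and the log2 fold change of -0.46 ± 0.22 (SE; 95% interval -1.01 to 0.08) did not pass (adjusted p = 0.365, edgeR). The third co-culture library, with 645 CPM of Tm4sf4, was above every other library and 0.43 above the organoids alone on the log2 scale. Tm4sf4 was the 1 marker for which that library lay on the other side of the organoids alone from both M9 and M10. The value was -0.71 without M9, where it passed (adjusted p = 0.0322), -0.24 without M10 and -0.10 with all 5 libraries.

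Spp1 (ENSMUSG00000029304; chromosome 5, 104435118 to 104441050, plus strand), which encodes the secreted osteopontin, had the largest fold change in size of the 8. Its level was 2001 CPM in M11 and 2726 in M12, and 1102 in M9 and 635 in M10, so both co-cultures lay below both libraries alone. The means were 2364 ± 512 and 869 ± 331 CPM (SD, n = 2 each), a ratio of 2.72 of alone over co-culture. The log2 fold change was -1.44 ± 0.31 (SE; 95% interval -2.20 to -0.69) and missed the threshold (adjusted p = 0.0825, edgeR). The third co-culture library, at 2026 CPM, was far above M9 and M10 and just below M11, at -0.25 from the mean of the organoids alone. DESeq2 called Spp1 lower (adjusted p = 0.000124), as did edgeR without a low-count filter (adjusted p = 0.00303), without M9 (-1.88; adjusted p = 0.000805) and without M10 (-1.10; adjusted p = 0.0211). With all 5 libraries it was at -0.94 (adjusted p = 0.595). The gene model Gm42793, inside Spp1 on its strand, shares 11.59% of its 50-base words and had at most 0.273% of the Spp1 count.

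Because macrophages and mesenchymal cells also express Spp1 and Cd44, markers of both, and of hepatocytes, were summed per total count. The 8 mesenchymal markers summed to 26.2 and 79.4 CPM in M11 and M12, to 1.89 and 2.90 CPM in M9 and M10 and to 7.92 CPM in the third co-culture library. None of the 8 was at 0 in M11, 1 in M12 and M10 each, 3 in M9 and, for the third co-culture library, 2. The 8 macrophage and leukocyte markers summed to 682 and 586 CPM alone, to 313 and 276 CPM in M9 and M10 and to 430 CPM in the third co-culture library. Nearly all of this was Cd14 and Csf1r, whereas Adgre1 and Clec4f, which define liver macrophages, had 0 counts in all 5 libraries. Lyz2, a lysozyme of macrophages and other myeloid cells, had 240 and 63.9 counts in M11 and M12 but 4 in M9, 2 in M10 and, for the third library, 0. Ptprc, the leukocyte antigen CD45, had at most 8 counts. The macrophage and leukocyte markers did not move together. Cd14 fell from 639 and 550 CPM alone to 276 (M9), 219 (M10) and 344 CPM (the third library). Csf1r, at 30.6 and 30.3 CPM alone, was at 30.8 (M9), 51.1 (M10) and 84.3 CPM (the third library). Cd68 was higher in M9 and M10 than alone but lower in the third library. The mesenchymal sum and the macrophage sum were lower in all 3 co-cultures than in either library alone, as were Spp1 and Cd44. Yet Spp1 in the third library was only just below M11 (2026 against 2065 CPM, scaled over the 5 libraries). Cd44 in M9 was also little below M11 (975 against 1058 CPM on that scale). The 8 hepatocyte markers summed to 73.6 and 252 CPM alone, to 56.2 (M9) and 106 CPM (M10), and to 319.5 CPM for the third library, with 1, 0, 1, 3 and 2 of them at 0. Their members did not move together. Alb, which encodes albumin, had 16.7 and 50.4 CPM alone, against 0.148 (M9), 0.251 (M10) and 65.4 CPM (the third library). Hp, which encodes haptoglobin, had 16.3 and 129 CPM alone against 0.502 (M9), 0.279 (M10) and 19.3 CPM (the third library). Ttr, which encodes transthyretin, was instead higher in every co-culture, with 38.7 and 42.6 CPM alone and 54.9, 104 and 228 CPM in M9, M10 and the third library. Apoa1, at a low level, was also higher in each. It had 0.151 and 0.137 CPM alone and 0.561 (M9), 1.34 (M10) and 5.98 CPM (the third library). The part of the mesenchymal, macrophage and hepatocyte markers in the differences of the 8 genes was not tested.

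Anxa4 (ENSMUSG00000029994; chromosome 6, 86736840 to 86793584, minus strand) encodes annexin A4, which binds membrane phospholipids in the presence of calcium. The libraries alone differed little, at 877 and 867 CPM, and both M9 (1038 CPM) and M10 (1396 CPM) were higher. The log2 fold change was 0.48 ± 0.19 (SE; 95% interval 0.02 to 0.94; adjusted p = 0.270, edgeR). The third co-culture library was at 1611 CPM, higher than any other and 0.84 above the organoids alone on the log2 scale. Without M9 the value was 0.69 and passed (adjusted p = 0.0129), and without M10 it was 0.25.

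Sox4 (ENSMUSG00000076431; chromosome 13, 28948919 to 28953713, minus strand) encodes a transcription factor of the SRY box family. M11 and M12 gave 349.8 and 320.2 CPM, M9 gave 437 CPM and M10 471 CPM, without overlap. The log2 fold change was 0.44 ± 0.15 (SE; 95% interval 0.08 to 0.80; adjusted p = 0.208, edgeR). Sox4 reached 703 CPM in the third co-culture library, 1.03 above the organoids alone on the log2 scale, or 2.04-fold. Antisense gene Gm26735 covers 54.09% of the 50-base words of the Sox4 transcript. Gm26735 was not analysed here, and as no source used here says whether the counting used strand, reads of the pair cannot be told apart.

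**Figure D2:**
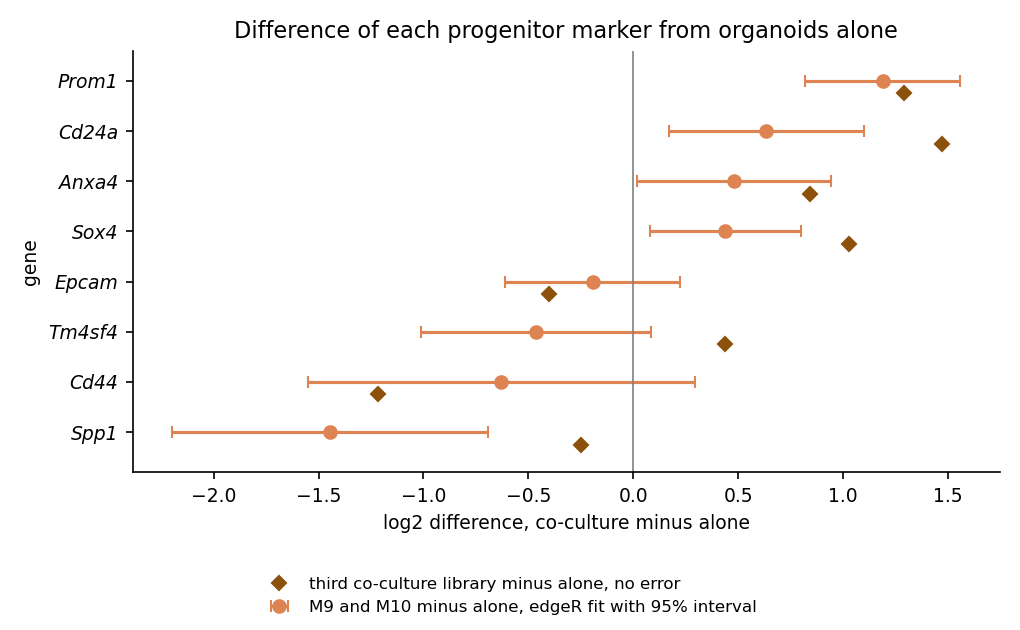
Log2 difference of each marker from the organoids alone (horizontal axis); circles are M9 and M10 against M11 and M12 from the edgeR fit with 95% intervals, and diamonds the third co-culture library, which has no error. The interval of Prom1, from 0.82 to 1.56, is the farthest above 0, and the diamonds of Spp1 and Tm4sf4 lie far to the right of their circles.

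With the third co-culture library joined by symbol, 4 of the 8 markers lay above both organoid-alone libraries in all 3 co-cultures, as did 15.1% of 14721 genes joined. These were Prom1, Cd24a, Anxa4 and Sox4. Cd44 and Spp1 lay below both in all 3, as did 16.9% of genes. Spp1, at 2065 CPM in M11, was only just lower in the third library (2026 CPM). The third library alone was above the mean of the organoids alone for 5 markers, and 49.6% of genes joined were. Its median difference over the 8 was 0.64 on the log2 scale, against -0.01 over all genes joined. M11 and M12 serve both comparisons, so the values of M9, M10 and the third library are given side by side and their likeness is not counted as a result.

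Ratios of counts within a library do not depend on scaling between libraries. There were 0.568 and 0.558 Prom1 counts per Epcam count in M11 and M12, and the 3 co-cultures had 1.33 (M9), 1.63 (M10) and 1.82 (the third library). This ratio was thus higher in each of the 3 co-cultures than in either library alone. Per Cd44 count there were 0.342 and 0.365 Prom1 counts alone, against 0.887 (M9), 2.07 (M10) and 2.01 (the third library). Cd24a stood at 0.644 and 0.570 counts per Epcam count alone, against 1.13, 1.0 and 2.22 in M9, M10 and the third co-culture library. The ratio of Spp1 to Epcam split the co-cultures, with 3.24 and 3.82 alone, 1.74 in M9 and 1.20 in M10, but 3.92 in the third co-culture library. Counts are not per length, so a ratio is compared only between libraries, and the third library's annotation differs.

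Levels can be compared between genes per length, as counts per kilobase of annotated exon and per library total (RPKM), within a library. The length is the union of a gene's exons, so a gene with rarely used exons reads low. In the organoids alone Spp1 was highest of the 8 (1250 RPKM in M11 and 1652 in M12), followed by Tm4sf4 (283 and 349) and Epcam (290 and 324), which overlapped. Next came Anxa4 (194 and 186 RPKM), then Cd44 (156 and 161) and Cd24a (159 and 157), which overlapped, then Sox4 (75.1 and 66.7) and Prom1 (50.3 and 55.3). In M9 and M10 Spp1 was still highest (665 and 376 RPKM). Epcam (287 and 235), Cd24a (276 and 200) and Tm4sf4 (262 and 184) stood in that order within each library, though their ranges overlapped between libraries. Anxa4 (222 and 293) lay below them in M9 and above them in M10. Prom1 (117 RPKM in both) lay above Sox4 (90.7 and 95.8) in M9 and M10, the reverse of the organoids alone, and Cd44 (140 and 59.8) spanned both. In the third co-culture library Prom1 (133 RPKM) was again below Sox4 (148). Counts of that library were made on another annotation than the exon lengths, so its order of genes mixes annotations. In every library the Sox4 level may also hold reads of Gm26735. By rank among 21829 protein-coding genes, Prom1 stood at 896 in M11, 852 in M12, 361 in M9 and 333 in M10, and at 238 among the 19556 such genes joined in the third co-culture library. Spp1 stood at 14 and 11 alone, at 40 and 90 in M9 and M10, and at 15 in the third co-culture library. The 8 markers together took 0.621% and 0.703% of counts alone, 0.609% and 0.499% in M9 and M10, but 0.816% in the third co-culture library.

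**Figure D3:**
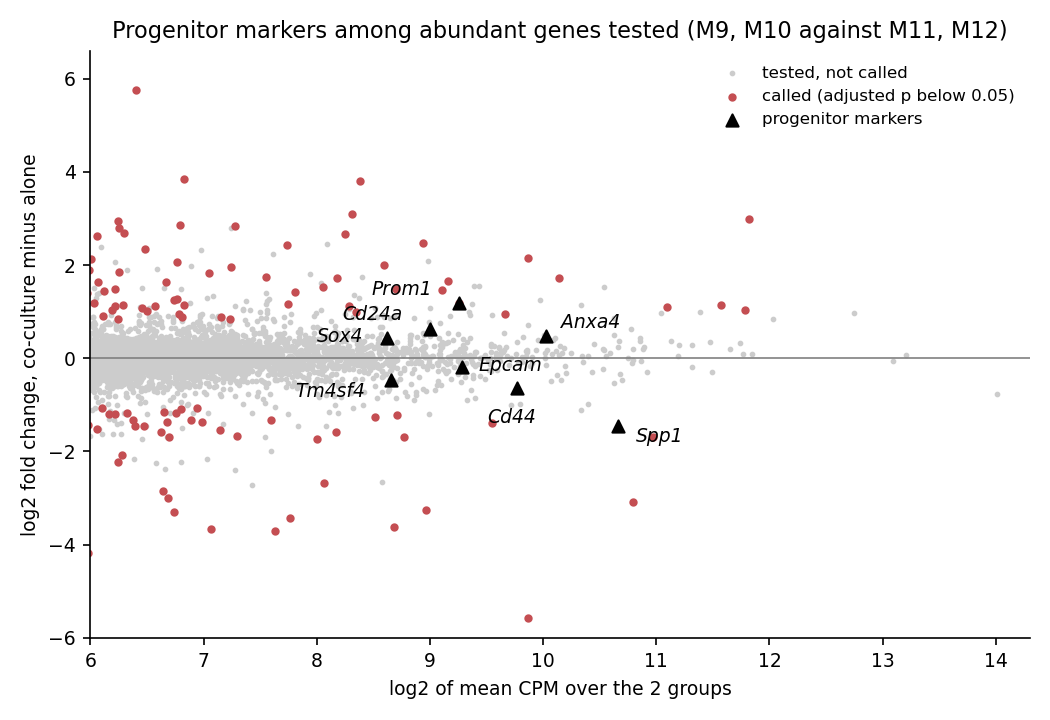
Log2 fold change (M9 and M10 minus M11 and M12) against the log2 mean CPM of the more abundant genes; red points passed edgeR's test at an adjusted p under 0.05, grey points did not, and triangles are the 8 progenitor markers. All 8 lie among the abundant genes, and of them Prom1 alone passed, at 1.19.

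Genes whose pattern over the 5 libraries was nearest to each marker were taken among 6207 genes whose log2 CPM averaged 5 or more, by the root mean square difference of log2 CPM after centring each gene on its mean. Nearest to Prom1 were Ech1, an enzyme of fatty acid oxidation (0.102), and Cbr1, a carbonyl reductase (0.120). Ech1 had 37.5 and 44.9 CPM alone, against 82.5 (M9), 105 (M10) and 102 CPM (the third library). Nearest to Spp1 were Plet1, a surface protein of epithelial progenitors (0.161), and Fermt2, an integrin adaptor (0.167). Plet1 stood at 427 and 463 CPM alone and, for M9, M10 and the third library, at 169.9, 127 and 357 CPM, high in the same 3 libraries as Spp1. Nearest to Cd44 were Rcc1 (0.124) and Ppa1 (0.128), both lowest in M10 and the third co-culture library. For the others they were Psmb6 and Sec13 (Epcam), Add3 and Vwa5a (Cd24a), Cpt1a and Glrx (Tm4sf4), Cab39l (Anxa4) and Atxn7l1 and Synj2 (Sox4), at differences from 0.0238 to 0.124. With 5 libraries such a likeness is a description only.

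Among relatives of the markers by gene family (22 in all, among them Prom2, 3 other TM4SF genes, 11 other annexins, Sox11, Sox12 and 3 relatives of osteopontin), 18 were tested. None rose and 1 fell, Tm4sf5, while 17 did not pass (2.24% of all genes tested were called). At an unadjusted p under 0.05, 4 were higher and 2 lower (17.5% of all genes in either direction). By DESeq2 there were 3 higher and 2 lower (8.26% of all genes called), and by limma-voom 0 in either direction (1.79%). Tm4sf5, a close relative of Tm4sf4, had 9.91 CPM in M11 and 7.58 CPM in M12, but 2.17 CPM in M9 and 1.91 CPM in M10. The log2 scale difference was -2.10 ± 0.35 (SE; adjusted p = 0.0490, edgeR), and the level was 1.07 CPM in the third co-culture library. The call was lost without M11 (adjusted p = 0.344), without M12 (adjusted p = 0.269), by limma-voom (adjusted p = 0.0544) and with all 5 libraries (adjusted p = 0.263). The median over the 18 was 0.29, against 0.00 over all genes tested.

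Of 22 genes that act with CD44 and osteopontin (hyaluronan synthases and hyaluronidases, integrin subunits, sheddases, splicing regulators and ERM linkers), 20 were tested. None rose and 1 fell, where 2.24% of all genes tested were called. At an unadjusted p under 0.05, 1 was higher and 7 lower (17.5% of all genes in either direction). By DESeq2 0 were higher and 2 lower (8.26% of all genes called), and by limma-voom 0 and 1 (1.79%). The gene that fell was Mmp7, a secreted protease of epithelia that can cleave osteopontin. M11 and M12 held 115 and 125 CPM of it, M9 only 9.47 CPM and M10 3.66 CPM. Its change on the log2 scale was -4.19 ± 0.46 (SE), with an adjusted p = 0.0203 by edgeR. The third co-culture library, at 7.62 CPM, lay between M9 and M10. The call was lost without M11 (adjusted p = 0.0708), without M12 (adjusted p = 0.101), without a low-count filter (adjusted p = 0.0834) and with all 5 libraries (adjusted p = 0.0813). Over the 20 genes the median was -0.12, which became -0.02 with a stricter filter and -0.31 without M9.

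All 8 genes that act with EpCAM or at the same junctions were tested and none passed (2.24% of all genes were called). None had an unadjusted p under 0.05 (17.5% of all genes) or was called by DESeq2 (8.26%) or limma-voom (1.79%). Cdh1, which encodes E-cadherin, ran from 1196 to 1454 CPM in the organoids alone and from 1259 to 1478 CPM in M9 and M10, which overlapped, and the third co-culture library had 1625 CPM. The difference of 0.046 ± 0.18 on the log2 scale (SE; adjusted p = 0.929, edgeR) changed sign without M11 (-0.080) and without M10 (-0.070). Ctnnb1, which encodes beta-catenin, ran from 2453 to 2571 CPM alone and from 2995 to 3384 CPM in M9 and M10 (0.34 ± 0.15, SE, on the log2 scale; adjusted p = 0.321, edgeR), with 2817 CPM in the third co-culture library. For M9 and M10 the median over these 8 was 0.00, with none beyond 0.34 in size. For the third co-culture library 3 of these 8 lay above the mean alone, their median was -0.37, and the lowest values were -1.05 for Spint2 and -0.96 for Cldn7.

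Of 20 other biliary and progenitor markers, 19 were tested, of which 3 rose, 1 fell and 15 did not pass. Over all genes tested 0.994% were called higher and 1.25% lower. Besides the keratins Krt7 and Krt19, Aqp1, a water channel of cholangiocytes, rose from 9.21 ± 0.845 CPM (SD, n = 2) to a mean of 77.9 ± 10.3 CPM (SD, n = 2). Its change on the log2 scale was 3.08 ± 0.20 (SE), with an adjusted p = 0.0074 by edgeR. In the third co-culture library Aqp1 was at 569 CPM, 5.90 above the organoids alone on the log2 scale. Dmbt1, a secreted scavenger receptor protein of ductular cells, fell from 398 ± 92.9 to 36.9 ± 17.4 CPM (-3.43 ± 0.38 on the log2 scale, SE; adjusted p = 0.0208, edgeR). Dmbt1 was at 212 CPM in the third co-culture library, at -0.93 from the organoids alone on the log2 scale. Krt7 and Krt19 had log2 fold changes of 1.11 and 1.15, close to the 1.19 of Prom1. In the third co-culture library they lay on the other side, at -0.80 and -0.60 from the organoids alone, where Prom1 was at 1.29. Leaving out M11 left 1 of these genes higher and 0 lower, leaving out M12 none, leaving out M9 (15.7% of all genes called) gave 4 higher and 2 lower, leaving out M10 (6.68%) gave 6 and 1, and the 5 libraries together gave 0 and 0. DESeq2 gave 5 higher and 1 lower, where it called 8.26% of all genes. The calls of Krt7, Krt19 and Dmbt1 were lost without M11 and without M12, that of Aqp1 without M12 (adjusted p = 0.0969), and all 4 with the 5 libraries together.

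**Figure D4:**
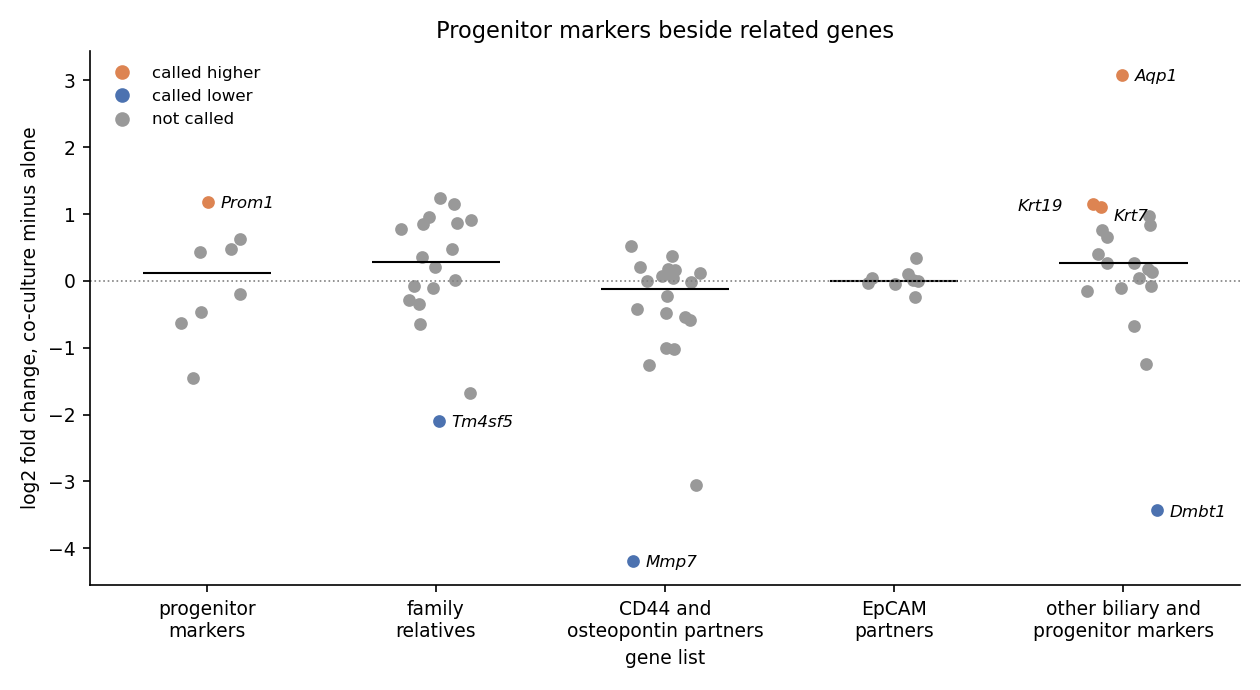
Log2 fold change (M9 and M10 minus M11 and M12) of each gene tested, for the 8 progenitor markers and 4 lists of related genes (horizontal axis); lines are medians, orange and blue points passed edgeR's test higher or lower, and grey points did not. Points of the EpCAM partners lie close to 0, while Aqp1 at 3.08 and Mmp7 at -4.19 lie farthest from it.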

How the data were processed

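The authors deposited 1 table of estimated counts for the libraries M11, M12, M9 and M10, with Ensembl genes in rows, per its header. Its 73925 rows repeat 52029 genes, of which 1 row each was kept. The columns name the group but not the sample. A further co-culture library, called the third, was deposited as whole-number counts per RefSeq gene in a table whose column carries another library name than its record, which was followed. The 10 columns of TPM and FPKM were not used. Tools listed in the submitters' processing notes, without their roles, are StringTie 2.1.3b, Bowtie2 2.3.4.1, HISAT2 2.1.0, FastQC 0.11.7 and Trimmomatic 0.38, and builds mm10 and GRCh37. Which program counted reads, on what annotation and with what use of strand is not given in the sources used here.

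Counts were rounded and tested in R 4.3.3 by edgeR 4.0.16, with filterByExpr, TMM, a robust quasi-likelihood fit and Benjamini-Hochberg adjustment. SEs were taken as the log2 fold change over the root of F. Libraries of a group differed by more than counting noise (chi-square over its degrees of freedom, 36.1 for M11 and M12 and 102 for M9 and M10). The third library was joined for 30844 symbols, which hold 97.7% of its counts, and its log2 differences use a prior count of 2. Tested on simulated counts of 15899 genes, 50 per fold size, the fit found 8% of genes changed 2-fold, 86% of those changed 4-fold and all changed 8-fold, and 2 of its 149 calls were false. Alternatives were other scalings, filters, DESeq2 1.42.0, limma-voom (limma 3.58.1), each library left out, and all 5 libraries. Positions and exon lengths are from GENCODE M21 (GRCm38) by Ensembl ID. Members, lists and tests were chosen with earlier results of these data known. Genes named are the 8 markers, up to 4 called genes of each related list in order of p (the 2 of highest level if none was called), and the 2 nearest patterns of each marker, of which 1 is not reported here.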

Additional observations from a re-analysis of the deposited data

How the results depend on the processing

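Of 96 values of the 8 markers under 12 alternatives, none changed sign, 84 stayed on their side of the threshold, 3 lost a call (Prom1) and 9 gained one. The count of markers higher, 1, became 2 without a low-count filter and 0 with all 5 libraries, and ranged from 0 to 2 with each library left out. The count lower, 0, became 1 with DESeq2 and 1 without a low-count filter, and ranged from 0 to 3 with each library left out. The count of genes called, 356, became 1314 with DESeq2, 1404 without a low-count filter and 2 with all 5 libraries, and ranged from 0 (without M12, where 1438 had an unadjusted p under 0.05) to 2619 (without M9), with 1114 without M10. Fits without a library leave 1 in an arm, assumed to vary like the other group, and the cause of these shifts was not tested. Cdh1, at 0.046, was -0.080 without M11 and -0.070 without M10, and ranged up to 0.19 with each library left out. Total count scaling raised the third library's differences of all 8 markers by a like amount. Cd24a went from 1.47 to 1.52, Anxa4 from 0.84 to 0.89 and Prom1 from 1.29 to 1.34. The median over all genes joined went from -0.010 to 0.036. The values of the related genes named under these alternatives were added after seeing the data. No paired analysis was possible because the columns carry library numbers and not the labels' replicate numbers.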

Other observations

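Some relatives of the markers are described here that were chosen after their values were seen. Anxa13, an annexin of intestinal and kidney epithelium, ran from 161 to 188 CPM in the organoids alone and from 320.1 to 336 CPM in M9 and M10. Its difference of 0.91 ± 0.16 on the log2 scale (SE) just missed the threshold (adjusted p = 0.0523, edgeR), and the third co-culture library stood at 1.27. Sox11, in the same SOX subgroup as Sox4, ran from 10.5 to 12.3 CPM alone and from 3.47 to 3.69 CPM in M9 and M10 (-1.67 ± 0.29; adjusted p = 0.0536, edgeR), and stood at 0.23 in the third co-culture library. Itgav, an integrin subunit of osteopontin receptors, had 515 CPM in M11, 392 in M12, 227 in M9 and 228 in M10 (-0.996 ± 0.18; adjusted p = 0.0587, edgeR), and stood at -1.77 in the third co-culture library. Pkhd1 and Bicc1, whose loss gives cysts of ducts or kidney tubules, were not called in M9 and M10 (edgeR, adjusted p = 0.176 and 0.426). In the third co-culture library they stood at 2.32 and 1.51 from the organoids alone.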
